A study of Rattus norvegicus with 10 samples.

Results

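Sarcomere structural genes were examined in rat left ventricle after gene transfer of the transcription factor GATA-4. They comprise proteins of the thick and thin filaments, the M-band and the Z-disc, with muscle creatine kinases, myoglobin and small muscle proteins that work beside them, and the atrial and skeletal muscle counterparts of ventricular proteins. A list of 34 genes was matched by symbol to the array annotation, and every probe set that named a listed gene alone was kept, whatever its signal. This gave 32 genes, of 14217 genes named alone on a probe set, and 58 probe sets, of 31042 that are not array controls. Actc1, cardiac alpha-actin, appeared on 5 probe sets only together with another actin gene, and Nebl on none, so neither was read.

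The 10 Affymetrix rat genome arrays held total RNA from the left ventricle of male Sprague-Dawley rats, 5 of which had received the GATA-4 gene 3 days earlier and 5 the LacZ gene at the same interval. LacZ, the bacterial beta-galactosidase gene, served as control. Both groups thus carried a transferred gene, and no untreated ventricle was analysed here. Of the vector, its promoter and the site of delivery nothing is stated in the sources used here. The design text counts 5 samples in each group, and nothing in the labels says whether an animal gave more than 1 sample, so p-values measure the spread between these samples.

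The sarcomere is the contractile unit of striated muscle. Myosin heads of the thick filament pull on actin of the thin filament, troponin and tropomyosin gate the contact when calcium rises, titin spans from the Z-disc to the M-band as a spring, and Z-disc and M-band proteins hold the filaments in register. Atrial, ventricular and skeletal muscle build the same structure from different isoforms, and ventricle uses several isoforms in fetal life or under load that it otherwise keeps low. GATA-4 binds GATA sequences in promoters and enhancers of many cardiac contractile genes.

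Signals are given as log2 of quantile normalized intensity, on which a difference of 1 is a doubling. Changed, higher and lower are used of a probe set whose limma p, adjusted by the Benjamini-Hochberg method over all 18625 probe sets tested, was under 0.05. A gene was represented by its brightest probe set. Gata4 itself, which checks the labels, read 11.44 ± 0.14 after GATA-4 and 10.65 ± 0.13 after LacZ (SD, n = 5 each; limma adjusted p = 0.00131). Without normalization between arrays this difference was 0.70 (limma adjusted p = 0.993). A dimmer Gata4 probe set, too dim to be tested, read 5.24 ± 0.65 and 4.44 ± 1.11, with overlapping groups. The 2%-trimmed mean of the deposited signal was 142.3 on GATA-4 array 1, while it ran between 249.5 and 328.7 for GATA-4 arrays 2 to 5 and between 249.2 and 313.6 for LacZ. For members that moved most without GATA-4 array 1, values without it are given beside those with all arrays.

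Most ventricular sarcomere transcripts did not differ between GATA-4 and LacZ by the test, a few were lower, and a skeletal isoform, Mybpc2, was higher. Of the 58 member probe sets 49 were bright enough to be tested (mean log2 above 5.17), and of these 1 was higher and 6 were lower after GATA-4, 14.3%. Of all probe sets tested 5.30% changed, 3.04% higher and 2.27% lower. Of the 6 lower member probe sets 3 were annotated as Myh1, and which transcript these read was not tested. Among the 31 genes tested by their brightest probe set, Mybpc2 was higher. Ttn, Mylk3, Tmod1 and the probe set annotated as Myh1 were lower, and together these made 16.1%. Of all 10688 genes 6.37% changed, 3.71% higher and 2.66% lower. The median log2 difference of the 31 genes was -0.07, with 8 above and 23 below 0, where the median of all genes was -0.02. By probe set the member median was -0.07 and that of all probe sets -0.03, but the medians were -0.02 and -0.02 without GATA-4 array 2, and -0.01 and -0.02 without GATA-4 array 3. Without GATA-4 array 1, 3 member probe sets were higher and 7 lower, 20.4%, where 15.3% of all probe sets changed (7.86% higher, 7.44% lower), and the median of the 31 genes was -0.09. When the arrays were not normalized to each other, no member probe set passed, and those called above had an adjusted p of 0.993. Among the 24 genes that are neither atrial nor skeletal isoforms, 0 were higher and 3 were lower. Of these 24 genes 5 had an unadjusted p under 0.05 in limma, where 2585 of all 10688 genes did. The 21 that did not pass had differences between -0.17 and 0.06. In a piece of ventricle fewer cardiomyocytes and less RNA per cardiomyocyte cannot be told apart. The 9 probe sets under the filter were both of Tnnt3, 2 each of Tpm1 and Pdlim5, and 1 each of Tnnt2, Mybpc2 and Ldb3.

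**Figure D1:**
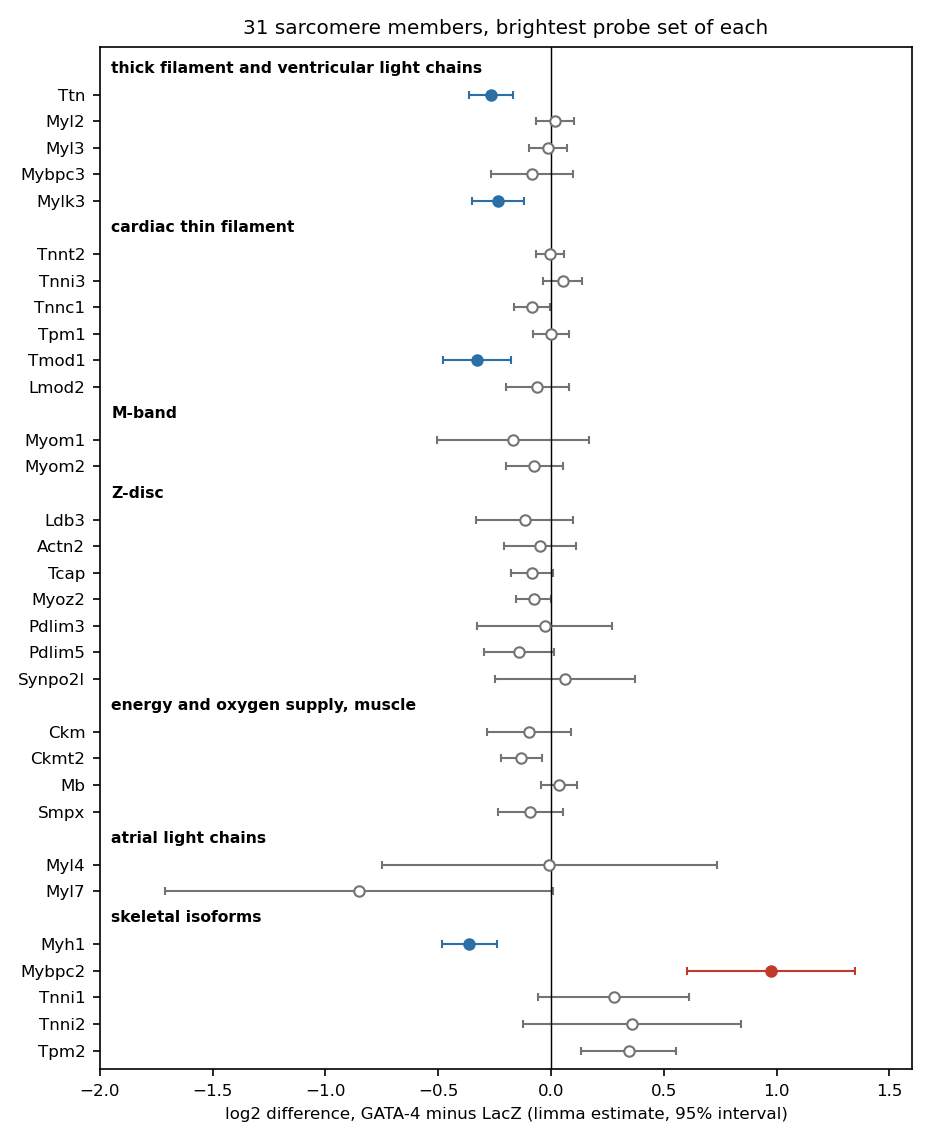
Log2 difference, GATA-4 minus LacZ, of the 31 tested sarcomere genes by their brightest probe set, grouped by role, with limma's 95% interval as bars. Filled points passed the adjusted threshold (blue lower, red higher). Ttn, Mylk3, Tmod1 and the probe set annotated as Myh1 lie left of 0 and Mybpc2 lies right of it at 0.97. Most intervals of ventricular genes are narrow and span 0.

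Many of these transcripts are among the brightest on the array. Of the 49 tested probe sets 13 had a mean log2 of 13 or more, close to the highest mean of any probe set, 13.97, and 13 more lay from 12 to under 13. Of the 112 probe sets of the array at 13 or more 5.36% changed and their median absolute difference was 0.06. Of the 340 between 12 and 13, 19.7% changed and the median absolute difference was 0.12. Among members 1 of 13 changed in the brighter class, Ttn, and 4 of 13 in the class below it. These 4 were the brighter Mylk3 probe set and the 3 lower probe sets annotated as Myh1. Quantile normalization gives every array the same set of values, so probe sets near the top can read identical values on several arrays. Tnnt2 read 13.6499 on GATA-4 arrays 2 and 5 and on LacZ arrays 1, 3 and 5. SDs and intervals of the brightest members carry this limit. How far signals so close to the top of the scale narrow the differences was not tested.

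Titin, the giant elastic protein that sets passive stiffness and filament length, was lower after GATA-4. Ttn read 12.83, 12.98, 12.89, 12.77 and 12.93 on GATA-4 arrays 1 to 5 and 13.15, 13.12, 13.19, 13.17 and 13.12 on LacZ arrays 1 to 5. Every GATA-4 array lay below every LacZ array. Of the 49 member probe sets 8 had groups that did not overlap, in either direction, where 8.30% of all probe sets did. The difference was -0.27 (SE 0.05), so that the signal fell by 17.0%, with an adjusted p of 0.00957 in limma. It passed the threshold in each of the 10 fits that left out 1 array, and missed it with median centring (adjusted p = 0.0634) and in limma without the intensity trend (0.0880).

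Mylk3, the cardiac kinase that phosphorylates the ventricular regulatory light chain, was also lower. Its brighter probe set read 12.41, 12.42, 12.22, 12.38 and 12.42 after GATA-4 and 12.53, 12.61, 12.66, 12.67 and 12.55 after LacZ, a difference of -0.24 (SE 0.05; limma adjusted p = 0.0266). The groups did not overlap, and the spread within each was under 0.1 (SD 0.08 and 0.06). The dimmer Mylk3 probe set read 10.94, 10.80, 10.61, 10.76 and 10.87 against 10.76, 11.13, 11.36, 11.33 and 11.05, a difference of -0.33 that missed the threshold (limma adjusted p = 0.106) and passed when either GATA-4 array 1 (adjusted p = 0.0410) or LacZ array 1 (0.0473) was left out. The call on the brighter probe set was lost in 6 of the 10 fits that left out 1 array. Its limma adjusted p was 0.0584 without GATA-4 array 3, 0.0511 without GATA-4 array 4, and 0.0546, 0.0875, 0.0681 and 0.0582 without LacZ arrays 2, 3, 4 and 5, while the difference stayed between -0.20 and -0.25 in these fits. The call was also lost with median centring (0.0743), with no filter (0.0848), without the intensity trend (0.131) and with 8 arrays, GATA-4 arrays 4 and 5 left out because their sample numbers lie apart (0.0766).

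The substrate of that kinase and the other thick filament proteins did not pass the test. Myl2, the ventricular regulatory light chain, differed by 0.02 with a 95% interval from -0.06 to 0.10. Myl3, the ventricular essential light chain, differed by -0.01 (interval -0.10 to 0.07). Neither interval reaches beyond 0.10 in either direction at this rounding. Mybpc3, cardiac myosin binding protein C, read 13.13, 12.63, 12.65, 12.87 and 12.75 after GATA-4 and 12.79, 12.97, 12.92, 12.92 and 12.87 after LacZ (difference -0.09, SE 0.08, limma adjusted p = 0.594). GATA-4 array 1 was the highest of all 10 for this gene, and the other GATA-4 arrays lay within or below the LacZ range. Without array 1 the difference was -0.16 (SE 0.05, limma adjusted p = 0.0611).

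The 250 bases upstream of the annotated start are shown for the genes that define the comparison: the isoform that was higher (Mybpc2), its cardiac counterpart (Mybpc3), and the lower genes Ttn and Mylk3. They are from RefSeq, build GRCr8, each read 5′ to 3′ on the strand of the gene, with capitals marking motif matches on either strand. The GATA-type motif is AGATAA or one of its variants AGATAG and TGATAA, or else TGATAG. The MEF2-type motif is CTA and TAG with 4 bases of any kind between them. No matches shown here overlap.
Mybpc2, chr1:104154102-104154351, minus strand: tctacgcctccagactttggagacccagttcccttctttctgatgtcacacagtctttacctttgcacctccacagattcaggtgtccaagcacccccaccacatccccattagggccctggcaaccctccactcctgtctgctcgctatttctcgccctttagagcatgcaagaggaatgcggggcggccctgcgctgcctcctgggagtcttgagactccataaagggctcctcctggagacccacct
Mybpc3, chr3:97550811-97551060, plus strand: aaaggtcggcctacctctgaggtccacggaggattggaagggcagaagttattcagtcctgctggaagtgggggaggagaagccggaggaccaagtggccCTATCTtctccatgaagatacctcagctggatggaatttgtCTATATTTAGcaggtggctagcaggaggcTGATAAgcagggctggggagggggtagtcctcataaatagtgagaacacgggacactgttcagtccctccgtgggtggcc
Ttn, chr3:82332111-82332360, minus strand: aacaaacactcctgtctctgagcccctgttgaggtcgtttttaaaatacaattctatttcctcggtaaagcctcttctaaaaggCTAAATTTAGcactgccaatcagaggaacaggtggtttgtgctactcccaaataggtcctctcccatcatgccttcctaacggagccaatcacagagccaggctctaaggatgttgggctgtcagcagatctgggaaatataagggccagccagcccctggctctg
Mylk3, chr19:37881745-37881994, plus strand: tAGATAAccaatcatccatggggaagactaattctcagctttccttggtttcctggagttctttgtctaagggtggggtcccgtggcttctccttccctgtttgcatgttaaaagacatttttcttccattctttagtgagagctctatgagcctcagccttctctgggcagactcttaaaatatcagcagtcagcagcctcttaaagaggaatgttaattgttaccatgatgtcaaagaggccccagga

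Mybpc3 held GATA-type matches that begin at -150 and -80 relative to the start, and a MEF2-type match, CTATATTTAG, at -109. Mylk3 had a GATA-type match at -249, Ttn a MEF2-type match, CTAAATTTAG, at -166, and Mybpc2 neither. Tmod1, also lower and not shown, had neither motif in its window. Over all members with a window, 9 of 26 genes held the GATA-type motif, where 27% of all 33469 promoter windows did, and 5 of 26 held the MEF2-type motif (Ckmt2, Mybpc3, Myoz2, Smpx and Ttn), where 3.41% did. Both of these MEF2-type counts allow any base between CTA and TAG. The Ckmt2 match, CTAGTGGTAG, holds G there, while those of Mybpc3, Myoz2, Smpx and Ttn hold only A and T. Of the 9 genes with the GATA-type motif Mylk3 was lower. Lmod2, Mybpc3, Myoz2, Smpx, Synpo2l, Tnni3 and Tnnt2 did not pass the test, and for Myh1 the transcript its probe sets read was not tested. A match describes the letters of this window alone.

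In the thin filament the pointed-end cap was lower, while troponin and tropomyosin of the ventricle did not pass the test. Tmod1, tropomodulin, which caps the pointed end of actin and sets thin filament length, read 11.64, 11.93, 11.63, 11.90 and 11.77 after GATA-4 by its brighter probe set, against 12.03, 12.07, 12.14, 12.16 and 12.10 after LacZ. The groups did not overlap, and the difference was -0.33 (SE 0.07), so that the signal fell by 20.3% (limma adjusted p = 0.0220). The dimmer Tmod1 probe set overlapped between groups, with a difference of -0.10 (adjusted p = 0.628). The adjusted p of the brighter one was 0.0531 without GATA-4 array 3 and 0.0716, 0.0556 and 0.0562 without LacZ arrays 3, 4 and 5, and 0.0778 in limma without the intensity trend and 0.0563 with 8 arrays.

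Tnnt2, cardiac troponin T, was the brightest member at 13.65 ± 0.02 after GATA-4 and 13.65 ± 0.02 after LacZ (SD, n = 5 each), a difference of -0.00 with an interval from -0.07 to 0.06. Tnni3, cardiac troponin I, differed by 0.05 (interval -0.03 to 0.14). Tnnc1, the calcium-binding troponin C of slow and cardiac muscle, differed by -0.08 (SE 0.04, unadjusted p = 0.0440, limma adjusted p = 0.213). Lmod2, leiomodin, which elongates thin filaments at the end that tropomodulin caps, differed by -0.06 (SE 0.07). So none of these passed the test, and the call in the thin filament was Tmod1 alone. For Tpm1, the main ventricular tropomyosin, 5 tested probe sets differed by -0.26 to 0.18 and none changed. The 3 brightest, at mean log2 of 13.22 or more, lay within 0.07 of 0.

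**Figure D2:**
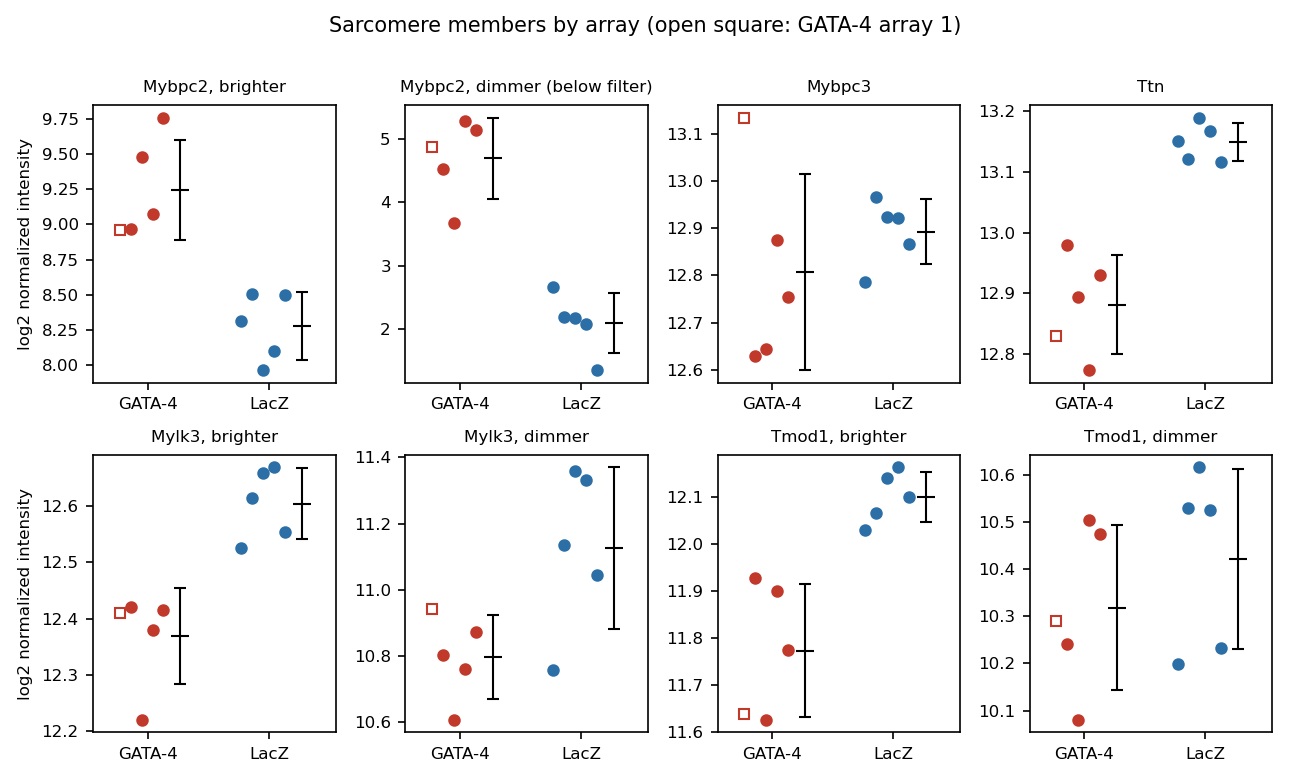
Log2 normalized intensity on each array (GATA-4 left, red, LacZ right, blue) for the members that changed and for probe sets of the same gene or its cardiac counterpart, with mean and SD as a black bar and an open square for GATA-4 array 1. The Mybpc2 arrays of the GATA-4 group sit above all LacZ arrays on both probe sets, and those of Ttn sit below, while Mybpc3 overlaps.

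Among the skeletal isoforms Mybpc2 was higher and only probe sets annotated as Myh1 were lower. Of 14 probe sets 11 were tested, 1 was higher and 3 were lower, 36.4%, where 5.30% of all probe sets changed. By brightest probe set 4 of 5 tested genes had a difference above 0, but of these only Mybpc2 changed. The median of the 5 was 0.34, where the 24 genes that are neither atrial nor skeletal isoforms had a median of -0.08. Mean log2 ran from 5.56 to 12.57 for the 5 and from 10.27 to 13.65 for the 24, so signal levels differ between them. Mybpc2 encodes the myosin binding protein C of fast skeletal fibres. It read 8.96, 8.97, 9.48, 9.07 and 9.76 after GATA-4 and 8.31, 8.50, 7.96, 8.10 and 8.50 after LacZ. Every GATA-4 array was above every LacZ array, and the rise was 0.97 (SE 0.17), or 1.97-fold (limma adjusted p = 0.0112). It passed in each of the 10 fits that left out 1 array, and missed when the arrays were not normalized (adjusted p = 0.993) and with the last 2 GATA-4 arrays left out (0.0505).

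A second Mybpc2 probe set lay under the filter and had no part in the counts. It read 4.87, 4.52, 3.68, 5.28 and 5.14 after GATA-4 and 2.66, 2.19, 2.18, 2.08 and 1.36 after LacZ, again with no overlap. With no filter its difference was 2.60 (adjusted p = 0.0119), and 1.07 when 16 was added to each intensity before log2, so that its size rests on how very dim signals are treated.

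Tpm2, beta-tropomyosin, which is abundant in slow skeletal fibres and low in adult ventricle, read 10.15, 10.31, 10.30, 10.31 and 10.08 after GATA-4 and 10.17, 9.80, 9.72, 9.91 and 9.84 after LacZ. LacZ array 1 lay among the GATA-4 arrays, and the other LacZ arrays lay below all of them. The difference of 0.34 (SE 0.10) missed the threshold with all arrays (limma adjusted p = 0.0604), and passed it without GATA-4 array 1 (0.36, adjusted p = 0.0219) and without LacZ array 1 (0.41, adjusted p = 0.0439). The dimmer Tpm2 probe set differed by 0.11 (SE 0.23).

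The troponin isoforms of skeletal muscle were near the lower end of the tested range. Tnni1, slow skeletal troponin I, which the heart also makes before birth, read 6.40, 6.50, 6.35, 6.17 and 6.23 after GATA-4 and 6.21, 6.34, 5.85, 6.14 and 5.72 after LacZ (difference 0.28, SE 0.16, limma adjusted p = 0.317). Tnni2, fast skeletal troponin I, read 5.62, 5.62, 6.30, 5.57 and 5.60 against 5.08, 5.85, 5.65, 4.96 and 5.37 (difference 0.36, SE 0.22, adjusted p = 0.376). Both genes had overlapping groups. Tnnt3, fast skeletal troponin T, was under the filter on both of its probe sets, with 5.02 ± 0.25 after GATA-4 and 5.04 ± 0.46 after LacZ by the brighter one (SD, n = 5 each).

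Probe sets annotated as Myh1, the fast IIx myosin heavy chain of skeletal muscle, were lower in 3 of 5 cases. The brightest read 12.34, 12.43, 12.30, 12.31 and 12.54 after GATA-4 and 12.81, 12.73, 12.71, 12.68 and 12.82 after LacZ, without overlap. Its difference was -0.36 (SE 0.06; limma adjusted p = 0.0071), and it passed in each fit that left out 1 array. The other 2 that changed differed by -0.26 (adjusted p = 0.0331) and -0.43 (adjusted p = 0.020), while the remaining 2 differed by -0.09 and -0.00. The call at -0.26 was kept in 2 of the 10 fits that left out 1 array, those without GATA-4 array 1 or LacZ array 2, and its adjusted p reached 0.0912 without LacZ array 5. The call at -0.43 was lost without GATA-4 array 3 (0.0506) and without LacZ arrays 1, 3 and 5 (0.0516, 0.0663 and 0.0534).

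Of the 14 skeletal muscle markers on the array 7 were under the filter (Myh2, Myh4, Tnnc2, Pvalb, Atp2a1, Actn3 and Cacna1s), with a summed signal of 89.41 to 105.7 after GATA-4 and 73.52 to 144.4 after LacZ. The other 7, Casq1, Tmod4, Myl1, Eno3, Pygm, Sln and Acta1, were tested, and some of these are also made in heart. Casq1, a calsequestrin of the sarcoplasmic reticulum (-0.40, limma adjusted p = 0.0308), and Eno3, the muscle enolase (-0.53, adjusted p = 0.0294), were lower. Sarcomeric myosin heavy chain genes are close in sequence, and the brightest probe set carries the suffix with which Affymetrix marks probes shared with other transcripts. Which transcript these probe sets read was not tested, so the lower signal is given for the probe sets and not for the Myh1 gene.

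The atrial light chains did not pass the test. Myl4, the atrial essential light chain that fetal ventricle also makes, read 7.74, 7.33, 6.92, 6.37 and 7.72 after GATA-4 and 7.42, 6.51, 8.40, 6.67 and 7.12 after LacZ, a difference of -0.01 (SE 0.34). Myl7, the atrial regulatory light chain, read 6.66, 5.55, 5.56, 5.59 and 5.27 against 6.18, 5.72, 6.62, 8.16 and 6.19 (difference -0.85, SE 0.40, limma adjusted p = 0.230). LacZ array 4 was the highest for Myl7 and GATA-4 array 1 the highest of its group. Without that array the difference was -1.096 (SE 0.38, limma adjusted p = 0.0695). With SDs of 0.54 to 0.94 these genes varied more between arrays of a group than any ventricular light chain did.

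The isoforms of a pair serve the same place in the sarcomere. For this reason the shift of 6 atrial or skeletal members was set against that of a ventricular counterpart on the same array. Myh1 and Tnnt3 were not paired. The 6 pairs were chosen with the single-gene results known, and adjustment over them does not account for that choice. Mybpc2 alone already had every GATA-4 array above every LacZ array, so its pair is no separate test. Each pair was tested with an exact two-sided permutation test over 252 arrangements of the arrays, which can give no p below 0.00794. Mybpc2 over Mybpc3 was higher after GATA-4 by 1.06 (SE 0.24; exact p = 0.00794, adjusted over the 6 pairs 0.0476). Tpm2 over Tpm1 was higher by 0.34 (SE 0.09; exact p = 0.0159, adjusted 0.0476), and by 0.32 with an exact p of 0.151 when the arrays were not normalized or were centred on the median. Tpm1 itself differed by -0.001, so this pair repeats the Tpm2 difference and is no separate test either. Tpm2 alone missed the threshold over all probe sets (limma adjusted p = 0.0604). The other pairs did not pass: Tnni1 over Tnni3 by 0.23 (exact p = 0.135), Tnni2 over Tnni3 by 0.31 (exact p = 0.198), Myl4 over Myl3 by 0.01 (exact p = 0.984) and Myl7 over Myl2 by -0.87 (SE 0.47, exact p = 0.0794), with adjusted values of 0.159 or more. For Myl7 over Myl2 the exact p, unadjusted, was 0.0238 when the arrays were not normalized or were centred (-0.82), 0.0159 without GATA-4 array 1 (-1.11) and 0.0318 without LacZ array 2 (-1.05), and the difference shrank to -0.49 without LacZ array 4. Pairs compare changes, not levels, since probe sets differ in how brightly they read.

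**Figure D3:**
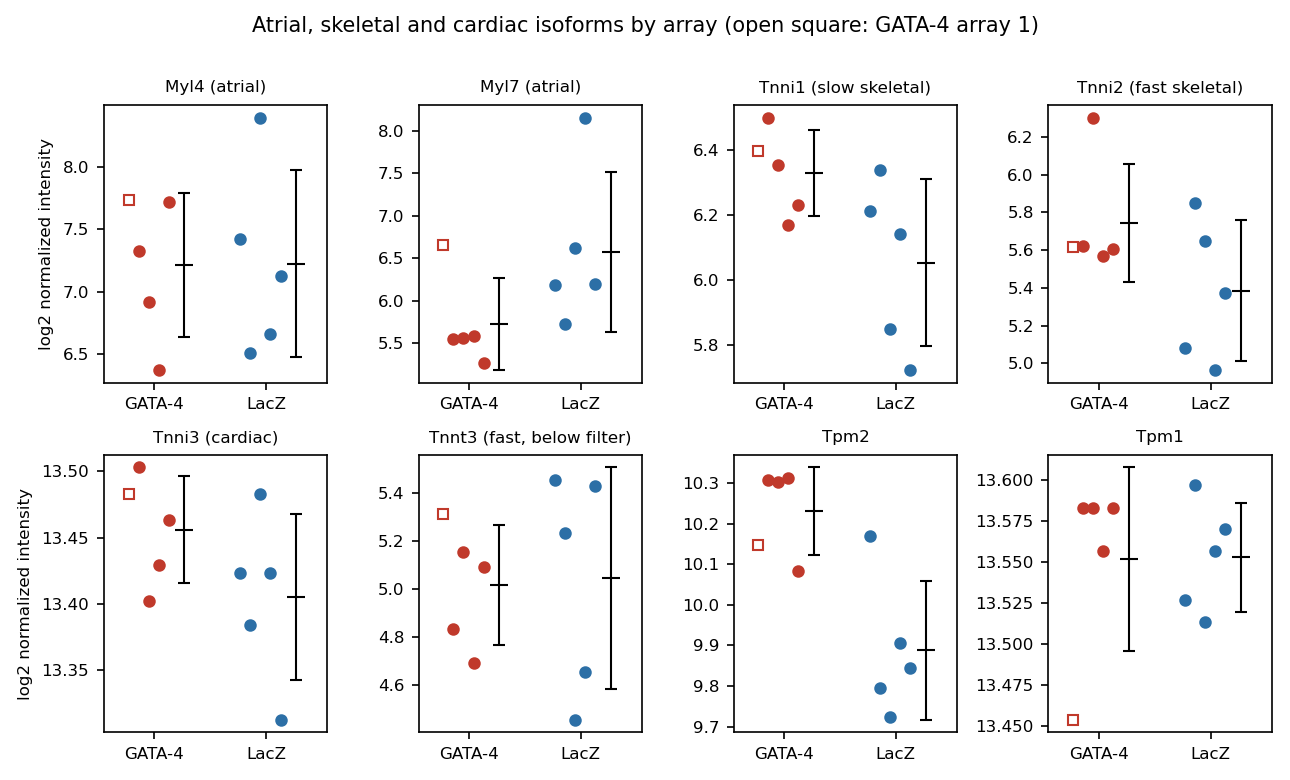
Log2 normalized intensity on each array (GATA-4 left, red, LacZ right, blue) of atrial and skeletal isoforms beside ventricular ones, with mean and SD as a black bar and an open square for GATA-4 array 1. The atrial light chains scatter over more than a log2 unit within a group, while LacZ array 1 is the only LacZ array of Tpm2 among the GATA-4 values.

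M-band and Z-disc members did not pass the test. In the M-band Myom1 and Myom2, myomesins that crosslink thick filaments, differed by -0.17 (SE 0.16) and -0.07 (SE 0.06). Without GATA-4 array 1 Myom1 differed by -0.32 (SE 0.11, limma adjusted p = 0.0620). In the Z-disc 0 of 7 genes changed in limma and 0 had an unadjusted p under 0.05, with differences from -0.14 to 0.06. Of all 10688 genes tested 6.37% changed and 2585 had an unadjusted p under 0.05. Actn2, alpha-actinin, which crosslinks actin at the Z-disc, differed by -0.05 (interval -0.21 to 0.11). Tcap, which anchors titin there, differed by -0.08 (interval -0.18 to 0.01), and Myoz2, which ties calcineurin to the Z-disc, by -0.08 (interval -0.16 to 0.00). Pdlim5, an enigma family protein, differed by -0.14 by its brightest probe set and by 0.66 (SE 0.31) by one near the filter, which passed without GATA-4 array 1 (0.90, limma adjusted p = 0.0389). Pdlim3 differed by -0.03, and by -0.17 without GATA-4 array 1 (limma adjusted p = 0.207), and Synpo2l by 0.06, against -0.00 without that array.

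Some of these genes varied within the GATA-4 group far more than within the LacZ group. Myom1 read 11.81, 10.74, 10.93, 11.33 and 11.25 after GATA-4 and 11.26, 11.42, 11.48, 11.44 and 11.31 after LacZ. Ldb3, which binds alpha-actinin at the Z-disc and had 5 tested probe sets with differences from -0.12 to 0.25, read 11.92, 10.68, 10.85, 11.60 and 11.34 on the third brightest of them, against 10.82, 11.29, 11.06, 11.12 and 10.82. GATA-4 array 1 was the highest of 10 in 15 of the 49 member probe sets, and GATA-4 arrays 2 and 3 were the lowest in 14 and 13. The log2 ratio of 3' to 5' control probe sets is a measure of how complete the RNA was. On arrays 1 to 5 it was 0.99, 1.34, 1.15, 0.97 and 0.92 with GATA-4 and 1.23, 0.89, 0.94, 0.88 and 1.43 with LacZ. LacZ arrays 1 and 5 were the lowest of their group for this Ldb3 probe set. GATA-4 array 1 was the highest of its group there, with a ratio above those of GATA-4 arrays 4 and 5. Over the groups the ratio ran from 0.92 to 1.34 with GATA-4 and from 0.88 to 1.43 with LacZ, and its part in the results was not tested.

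Genes for the energy and oxygen supply of the myofibril did not pass the test. Ckmt2, the mitochondrial creatine kinase of muscle, read 13.24, 13.42, 13.32, 13.42 and 13.38 after GATA-4 and 13.43, 13.49, 13.49, 13.52 and 13.52 after LacZ. The groups did not overlap by a narrow margin, and the difference of -0.13 (SE 0.04) missed the threshold (limma adjusted p = 0.0898). Ckm, the cytosolic muscle creatine kinase, differed by -0.10 (SE 0.09), Smpx, a small muscle protein, by -0.09 (SE 0.07) and Mb, myoglobin, by 0.03 (SE 0.04).

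The wider sarcomere and myofibril list, outside the 34 genes, held 51 genes on the array of 58 listed. By brightest probe set 39 were tested, of which 1 was higher and 2 were lower, 7.69%, near the 6.37% of all genes that changed, with a median difference of 0.00. By probe set 8 of 60 were higher and 2 lower, 16.7%, where 5.30% of all probe sets changed, and 7 of the 8 higher were tropomyosins. Tpm4, a tropomyosin of non-muscle and smooth muscle cells, was higher on both probe sets. Its brighter one read 11.92, 12.15, 12.23, 12.11 and 12.01 after GATA-4 and 11.77, 11.73, 11.54, 11.68 and 11.65 after LacZ, a rise of 0.41 (SE 0.07; limma adjusted p = 0.00983) with no overlap, and the dimmer one rose by 0.39 (adjusted p = 0.0288). With median centring both missed the threshold (0.28, adjusted p = 0.0957, and 0.29, adjusted p = 0.126). The dimmer one was called in 3 of the 10 fits that left out 1 array, those without GATA-4 arrays 1 or 3 or LacZ array 2.

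Tpm3, which makes slow skeletal and non-muscle tropomyosins, had 10 tested probe sets. Of these 5 were higher, by 0.57 to 0.80 (limma adjusted p from 0.00661 to 0.0246), and the brightest, which read 10.37, 11.02, 11.27, 10.64 and 10.77 against 10.50, 10.41, 10.12, 10.47 and 10.23, missed the threshold at 0.47 (adjusted p = 0.0847). GATA-4 array 1 was the low array there, and without it the brightest passed (0.58, adjusted p = 0.00853). Of the 5 called probe sets 3 passed in each fit that left out 1 array, and the other two in 5 and 4 of 10. The suffixes of several Tpm3 probe sets mark probes shared between transcripts, and how far they read other tropomyosins was not tested. Pdlim7, an enigma family protein, was higher on the dimmer of its probe sets (0.52, adjusted p = 0.0204) and differed by -0.02 on the brighter. That call was lost without GATA-4 array 3 (0.0517) and without LacZ arrays 1, 3 and 5 (0.0518, 0.0701 and 0.0534).

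**Figure D4:**
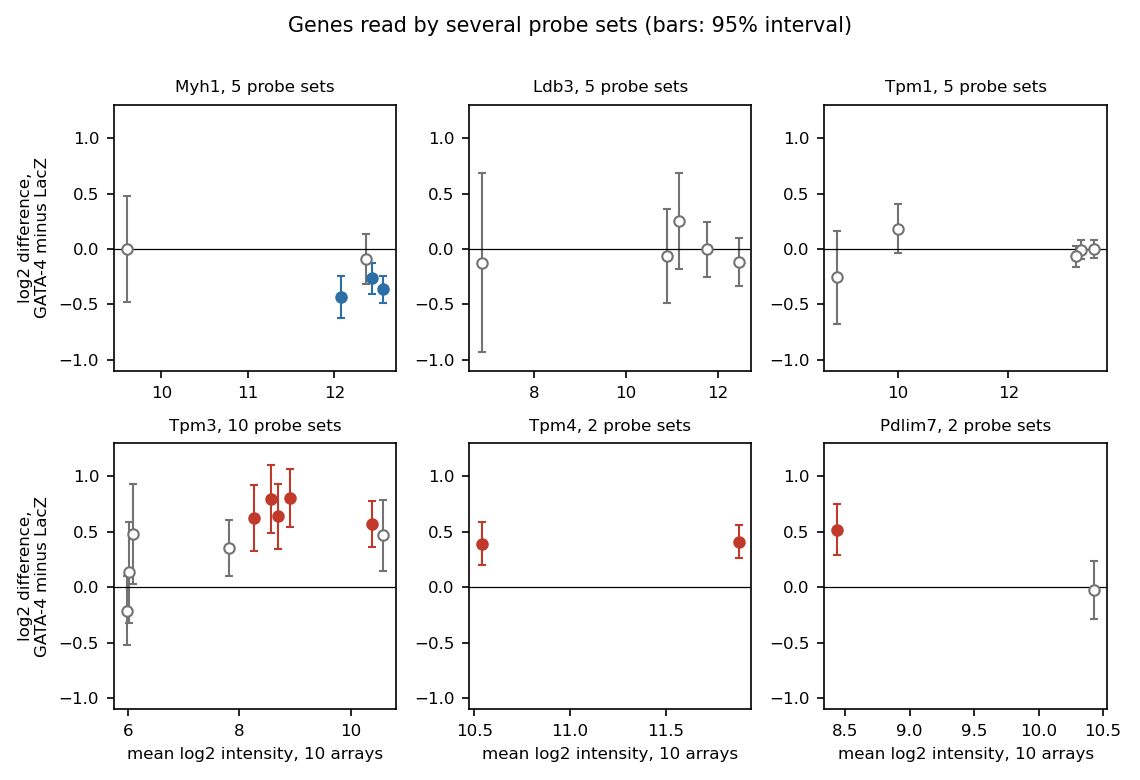
Log2 difference, GATA-4 minus LacZ, against the mean log2 intensity over the 10 arrays for each tested probe set of Myh1, Ldb3, Tpm1, Tpm3, Tpm4 and Pdlim7, with limma's 95% interval as bars and filled points for those past the adjusted threshold. Tpm3 and Tpm4 lie mostly above 0 at all levels of signal, Tpm1 and Ldb3 lie around 0, and Myh1 runs from -0.43 to -0.00.

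The 2 lower genes of the wider list belong to filament growth and protein turnover. Lmod3, a leiomodin best known from skeletal muscle, read 8.19, 8.08, 7.84, 7.80 and 7.83 after GATA-4 and 8.74, 8.55, 8.63, 8.84 and 8.60 after LacZ. It fell by 0.72 on the log2 scale (SE 0.11; limma adjusted p = 0.00708), with no overlap, so that the signal dropped by 39.3%. Trim63, MuRF1, a ubiquitin ligase of the M-band that marks sarcomere proteins for degradation, read 9.40, 9.81, 9.17, 9.56 and 9.63 against 10.09, 9.99, 10.18, 10.06 and 9.97, and fell by 0.54 (SE 0.11; adjusted p = 0.0213), also without overlap. By its brighter probe set Lmod3 passed in each fit that left out 1 array, and Trim63 missed without LacZ arrays 1, 3 and 4 (adjusted p = 0.0528, 0.0743 and 0.0513). The dimmer Lmod3 probe set differed by -0.28 (SE 0.24; limma adjusted p = 0.523), with overlapping groups. The major myosin heavy chains and skeletal alpha-actin, whose balance shifts in the loaded ventricle, did not pass the test. By brightest probe set Myh6 differed by -0.03 (SE 0.05), Myh7 by 0.03 (SE 0.03) and Acta1 by 0.00 (SE 0.05). Dimmer probe sets, with wider SEs, differed by -0.09 (SE 0.42) for Myh6 and by 0.35 (SE 0.27) for Myh7, and neither passed.

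Some markers of other cells changed between the same groups. For comparison, of all 10688 genes tested 6.37% changed, 3.71% higher and 2.66% lower, and 2585 had an unadjusted p under 0.05 in limma. Macrophage markers were higher for 8 of 15 genes and lower for 0, with a summed signal of 20000 to 25915 after GATA-4 and 13818 to 17601 after LacZ, and none of the 15 was under the filter. Cardiomyocyte markers outside the sarcomere were lower for 2 of 13 tested genes, Casq2 by -0.31 and Hrc by -0.47, both of the sarcoplasmic reticulum, with a median difference of -0.14 and a summed signal of 70845 to 77131 against 77843 to 80925. The brightest probe sets of the 32 sarcomere genes together held 1.58% to 1.71% of the normalized signal after GATA-4 and 1.71% to 1.76% after LacZ. Smooth muscle markers, which bear on Tpm2 and Tpm4, were higher or lower for 0 of 10 genes in limma, 0 had an unadjusted p under 0.05, and their summed signal was 13129 to 18578 against 13426 to 14812. Fibroblast markers were higher for 1 (Fn1) and lower for 1 (Dpt) of 12, with 50606 to 59966 against 49122 to 55555. Skeletal muscle markers, which bear on Mybpc2 and Tpm2, were higher for 0 and lower for 2 of 7 tested genes (Casq1 and Eno3), with 7 under the filter, a median difference of -0.40 and a summed signal of 19509 to 22206 against 21588 to 22844. Atrial markers, which bear on Myl4 and Myl7, changed for 0 of 4 tested genes in limma, 0 had an unadjusted p under 0.05, and their sum was 7951 to 11533 against 7565 to 9814. Endothelial markers changed for 0 of 11 in limma, 4 had an unadjusted p under 0.05, and their sum was 8581 to 11584 against 9769 to 10507. The part of these markers in the sarcomere results was not tested.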

How the data were processed

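The authors deposited linear intensities per probe set, made with GCOS, the array software of Affymetrix, per the submitters' processing notes. For its version, summary algorithm and scaling nothing is given in the sources used here. GEO's platform annotation gave the genes, and a RefSeq table of GRCr8 gave current symbols for the 20764 probe sets whose gene ID it held. A single gene was named for 20826 probe sets, several for 436 and none for 9780. Samples were grouped by source label, since titles name GATA-4 on all 10 arrays. Arrays are numbered by accession order, which pairs nothing.

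Intensities were taken to log2, quantile normalized over 31042 probe sets without the 57 controls, and floored at a log2 of 0. Probe sets with a mean above the 40th percentile were tested with limma 3.58.1 in R 4.3.3 (lmFit, eBayes with trend), two-sided, adjusted by the Benjamini-Hochberg method over 18625 probe sets, threshold 0.05. All adjusted p-values not named otherwise are from this fit, which was first tested on simulated data. Array weights used statmod 1.5.0. Alternatives were no normalization, median centring, another constant, floor or filter, no trend, robust limma, array weights, 8 arrays, and leaving out each array. The number of arrays limits the precision.

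Named were all members, with array values for changed genes and for atrial and skeletal isoforms, and changed genes of the wider list. Tpm3 and Pdlim7 were added through their changed dimmer probe sets, and array values of Mybpc3, Ckmt2, Myom1 and Ldb3 and the values of Myh6, Myh7 and Acta1 were picked after they were seen. Members and lists were chosen with earlier results of these data known.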

Additional observations from a re-analysis of the deposited data

Results flagged for a closer look

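For each of 33 quantities, the 31 tested genes among them, the highest and lowest array of each group of 5 was compared with the others of its group by Dixon's gap test, which flags about 5% of groups by chance. Of 66 groups 7 held an array that stood apart. On GATA-4 array 3, Mylk3 read 12.22 where the other GATA-4 arrays read 12.38 to 12.42, and Tnni2 read 6.30 where they read 5.57 to 5.62. GATA-4 array 1, the array of low overall signal, read 13.45 for Tpm1 where the others read 13.56 to 13.58, and 6.66 for Myl7 where they read 5.27 to 5.59. Synpo2l read 10.66 on GATA-4 array 2, where the others read 11.40 to 11.55. LacZ array 2 read 13.68 for Tnnt2, with the others at 13.64 to 13.65, and LacZ array 4 read 12.48 for Pdlim5, with the others at 12.66 to 12.72. After quantile normalization Tnnt2 read 13.6499 on LacZ arrays 1, 3 and 5, and Tpm1 read 13.5828 on GATA-4 arrays 2, 3 and 5. With such tied values the rate of 5% need not hold for these 2 flags.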

How the results depend on the processing

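The log2 difference of Mybpc2 lay between 0.85 and 1.13 and that of Ttn between -0.36 and -0.24 over all alternatives. The 988 changed probe sets (566 higher, 422 lower) became 9 without normalization between arrays, 619 with no filter, 539 without the trend, 2890 with array weights and 201 with 8 arrays (GATA-4 arrays 4 and 5 left out), and the split was 322 higher and 401 lower under median centring. Leaving out 1 array gave 174 (without LacZ array 3) to 2849 (without GATA-4 array 1). The 7 changed member probe sets became 0 without normalization, 2 without the trend, 11 with array weights and 3 with 8 arrays, and 3 to 10 when 1 array was left out, with 3 without GATA-4 array 3 or LacZ arrays 3 or 5 and 4 without LacZ array 4. The median difference of the 49 tested member probe sets, -0.07, was -0.13 both without normalization (-0.127) and with median centring (-0.130), where the median of all probe sets, -0.0254, was -0.0578 and -0.0603, and -0.09 to -0.01 when 1 array was left out (lowest -0.0875, highest -0.00904 without GATA-4 array 3). The 10 changed probe sets of the wider list became 0, 18 and 4 without normalization, with array weights and with 8 arrays, and 5 to 19 when 1 array was left out. Along with that shift of all probe sets, genes near 0 changed sign without normalization: Myl2 to -0.0493, Tnni3 to -0.0167, Synpo2l to -0.0447 and Mb to -0.0344, and with median centring Myl2 to -0.0517, Tnni3 to -0.0192, Synpo2l to -0.0471 and Mb to -0.0368. Tpm1 turned to 0.0204 with array weights, and with 8 arrays Myl4 turned to 0.106, Pdlim3 to 0.0119 and Synpo2l to -0.0378. With 1 array left out, signs also turned for Tpm1 (-0.0112 to 0.0214), Synpo2l (-0.000593 to 0.223), Actn2 (-0.0880 to 0.00494), Pdlim3 (-0.166 to 0.0337), Myl3 (-0.0308 to 0.0046), Tnnt2 (-0.00898 to 0.00262), Myl4 (-0.186 to 0.286), Myl2 (-0.00568 to 0.0367) and Myl4 over Myl3 (-0.169 to 0.282). Among genes outside the 34, Acta1 turned to -0.0762 without normalization and -0.0787 with median centring, and Pdlim7's brighter probe set to 0.00385 with 8 arrays. With 1 array left out Myh6 ranged from -0.0591 to 0.0198, Acta1 from -0.0307 to 0.0316 and Pdlim7 from -0.108 to 0.0421. The causes were not tested. Myl7, Tnni1 and Tnni2 have no value under the 60th percentile filter. No paired analysis was possible because the labels give no replicate numbers that the groups share.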
